A study of Mus musculus with 6 samples.

Results

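The serine synthesis and one-carbon enzyme genes described here were 10 genes chosen by name from the 24421 gene symbols of the deposited table: Phgdh, Psat1, Psph, Shmt1, Shmt2, Mthfd1, Mthfd1l, Mthfd2, Aldh1l1 and Aldh1l2. The rule that picked them names the genes and sets no measured value, although it was written with earlier results of these data known. All 10 were among the 13364 genes tested, those that averaged 1 FPKM or more over the 6 libraries (FPKM are fragments per kilobase of transcript, scaled to the mapped fragments of the library). RNA sequencing libraries were made from total RNA of flash-frozen tissue of female mice aged 5 months. The glands were 3 mammary gland libraries whose strain label reads FVB/NJ; Tg(LINK-A), and the tumours were 3 mammary tumour libraries whose label reads FVB/NJ; MMTV-Tg(LINK-A). LINK-A is a long non-coding RNA, and MMTV names a viral promoter that drives a transgene mainly in mammary epithelium. The gland label names the transgene without that promoter, so tissue and labelled genotype cannot be told apart in this comparison. No label says whether the 3 libraries of a group came from separate animals, and p-values therefore measure only the spread between these libraries.

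The pathway starts from a glycolytic intermediate, 3-phosphoglycerate. Phgdh oxidises it, Psat1 adds an amino group to the product, and Psph removes the phosphate to give serine. Serine hydroxymethyltransferases then split serine into glycine and a carbon unit carried on folate, with Shmt1 working mainly in the cytosol and Shmt2 in mitochondria. The folate-bound unit is used for purines, thymidylate and methionine, and many of these enzymes are known as targets of the stress-induced transcription factor ATF4.

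Of the 10 genes, 6 passed the test as higher in the tumours, 1 as lower and 3 did not pass. Psat1, Shmt2, Mthfd1, Mthfd2, Mthfd1l and Aldh1l2 were higher, Aldh1l1 was lower, and Phgdh, Psph and Shmt1 missed the threshold. Aldh1l2, at a mean of 0.626 FPKM in the glands, reached the filter of 1 FPKM through the tumours. Aldh1l1, at a mean of 0.666 FPKM in the tumours, reached it through the glands. Among all 13364 genes tested, 21.9% were higher and 23.1% were lower by the same test (limma, Benjamini-Hochberg adjusted p under 0.05). The median log2 fold change, tumour minus gland on log2(FPKM + 1), was 0.79 over the 10 genes and 0.008 over all tested genes. The 3 tumours lay beyond the 3 glands for 8 of the 10 genes, the 7 that passed and Phgdh, against 58.2% of all tested genes with such a separation in either direction.

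**Figure D1:**
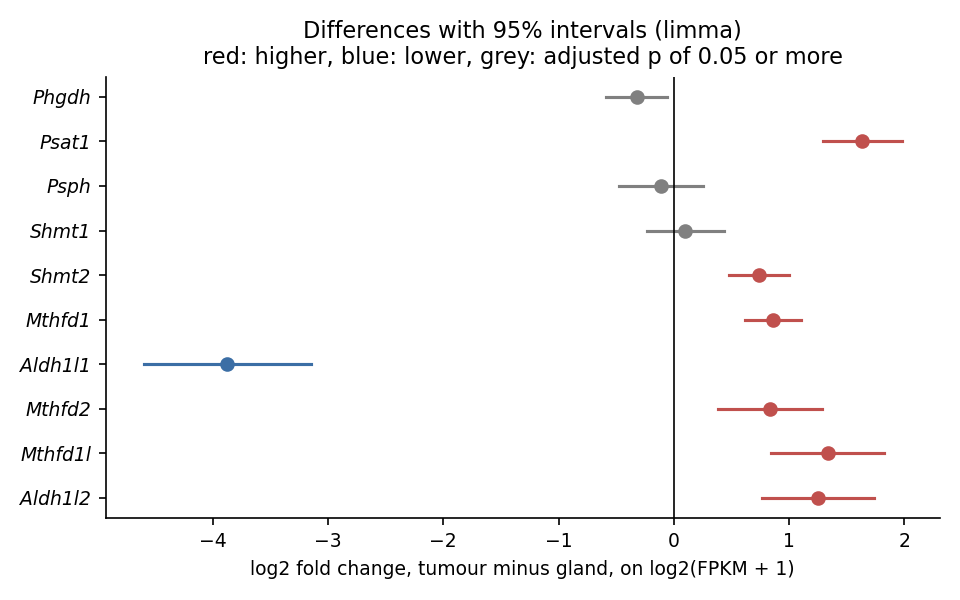
Log2 fold change, tumour minus gland on log2(FPKM + 1), for the 10 enzyme genes, with bars for the 95% confidence interval from limma over 3 libraries a group. Aldh1l1 lies at -3.87, Psat1 at 1.63, and the intervals of Psph and Shmt1 include 0.

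Some facts of the libraries bear on these values. The FPKM of a library summed to between 486080 and 582996, and 16218 to 16643 genes were above 0 in the glands against 15000 to 15749 in the tumours; the depth in reads is unknown. All 10 luminal epithelial markers and all 10 cell division genes were higher in the tumours, and all 8 adipocyte, 6 fibroblast and 5 endothelial markers were lower. The summed adipocyte markers were 7436, 6463 and 7820 FPKM in glands 1, 2 and 3 and 240, 234 and 47.4 FPKM in tumours 1, 2 and 3. The cell division genes summed to 113 to 135 FPKM in the glands and 460 to 470 FPKM in the tumours. Gland 2 stood apart, with skeletal muscle markers summing to 11337 FPKM against 13.2 and 1015 FPKM in glands 1 and 3, and with lymphocyte markers at 60.5 FPKM against 270 and 272 FPKM. Tumour 3 also stood apart, with S100a8, a granulocyte gene, at 259 FPKM against 3100 and 1833 FPKM in tumours 1 and 2 and 14.7 to 28.7 FPKM in the glands. The other 5 macrophage and granulocyte markers summed to 68.1 FPKM in tumour 3, 131 and 123 FPKM in tumours 1 and 2 and 109 to 128 FPKM in the glands. Of them, S100a9 was at 55.0, 39.2 and 9.15 FPKM in tumours 1, 2 and 3 and 7.33 to 11.6 FPKM in the glands. It did not pass (limma adjusted p = 0.105), nor did Itgam and Cd68. Csf1r and Adgre1 were called lower in the tumours. Leaving out gland 2 or tumour 3 left the counts of enzyme genes at 6 higher and 1 lower. Of all tested genes, 16.6% were higher and 21.6% lower without gland 2, and 23.4% and 24.3% without tumour 3. In bulk tissue, fewer cells of a type and less RNA per cell cannot be told apart, and the part of these cell types in the results on the enzyme genes was not tested.

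**Figure D2:**
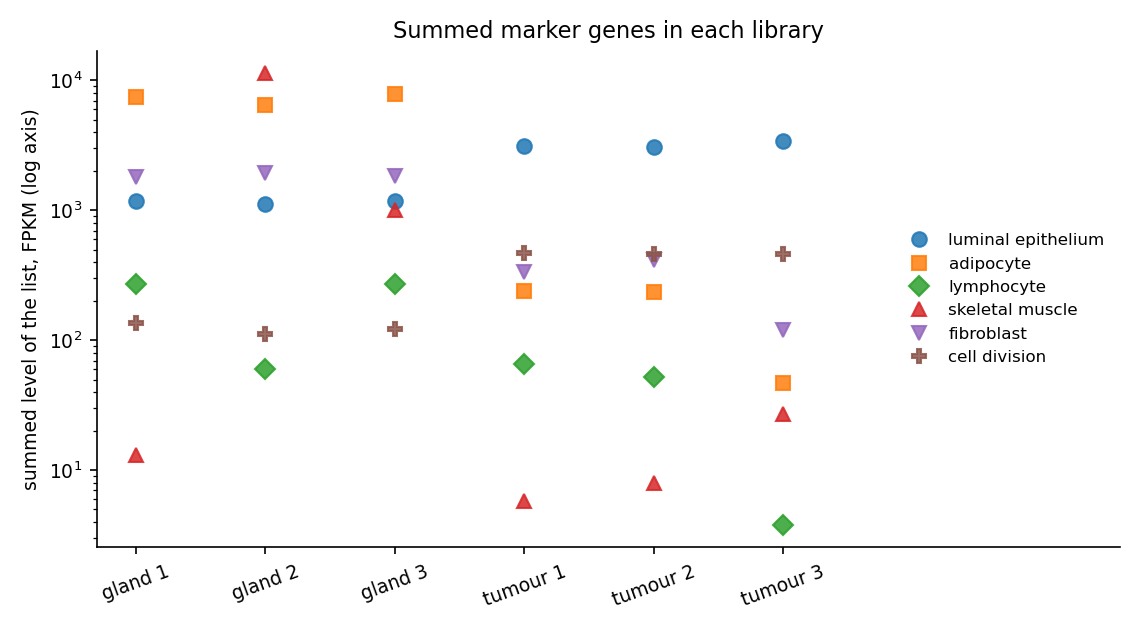
Summed FPKM of 6 of the marker lists in each library, on a log axis, with 1 point per list and library. Adipocyte markers lie far lower in the tumours, and the skeletal muscle markers reach 11337 FPKM in gland 2.

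The sequence before a RefSeq start is printed for 4 of the genes. These genes span the pattern: Psat1 and Mthfd2 were higher in the tumours, Aldh1l1 was lower and Phgdh did not pass. Each run is the 250 bases before the RefSeq start of the gene, 5′ to 3′ on the strand of the gene, in build GRCm38.p6. The windows were chr3:98339970-98340219 on the minus strand for Phgdh, chr19:15925060-15925309 on the minus strand for the upstream start of Psat1, chr6:83317605-83317854 on the minus strand for Mthfd2 and chr6:90550543-90550792 on the plus strand for Aldh1l1. Those of Psat1, Mthfd2 and Aldh1l1 lie inside the span that GENCODE annotates for the gene, which starts further upstream. Whether these stretches regulate the genes was not tested. Capitals mark matches on either strand to the letters CCAAT (read as ATTGG on the other strand), GGGCGG (read as CCGCCC) and TATAAA.
Phgdh: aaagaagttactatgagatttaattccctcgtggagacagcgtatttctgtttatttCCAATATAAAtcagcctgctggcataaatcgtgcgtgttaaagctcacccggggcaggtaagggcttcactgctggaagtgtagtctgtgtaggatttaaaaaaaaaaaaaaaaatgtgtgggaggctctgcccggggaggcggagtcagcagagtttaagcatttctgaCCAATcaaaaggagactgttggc
Psat1: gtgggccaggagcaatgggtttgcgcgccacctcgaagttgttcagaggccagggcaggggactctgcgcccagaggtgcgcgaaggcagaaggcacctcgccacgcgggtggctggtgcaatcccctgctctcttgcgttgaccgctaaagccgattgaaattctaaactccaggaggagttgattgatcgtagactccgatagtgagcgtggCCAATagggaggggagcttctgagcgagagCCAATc
Mthfd2: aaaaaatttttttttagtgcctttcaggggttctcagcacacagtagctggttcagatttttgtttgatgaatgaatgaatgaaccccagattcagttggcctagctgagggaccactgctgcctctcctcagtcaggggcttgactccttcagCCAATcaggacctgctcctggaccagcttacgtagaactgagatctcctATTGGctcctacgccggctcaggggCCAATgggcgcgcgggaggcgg
Aldh1l1: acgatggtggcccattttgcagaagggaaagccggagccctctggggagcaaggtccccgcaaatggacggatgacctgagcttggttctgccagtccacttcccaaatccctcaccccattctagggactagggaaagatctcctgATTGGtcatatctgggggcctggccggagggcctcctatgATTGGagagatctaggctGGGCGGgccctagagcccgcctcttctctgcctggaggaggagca

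Phgdh had CCAAT at bases 193 to 189 and 23 to 19 before its start, the former sharing 1 base with TATAAA. Psat1 had CCAAT at bases 36 to 32 and 6 to 2, and Mthfd2 had 3 matches, of which the nearest lay at bases 22 to 18. Aldh1l1 had CCAAT on the opposite strand at bases 103 to 99 and 63 to 59, with GGGCGG at bases 45 to 40. RefSeq gave 10 windows for 9 of the 10 genes, all but Aldh1l2, with a pair for Psat1. CCAAT occurred in 7 of the 10 windows, against 33.8% of all 32851 windows of this length, and GGGCGG in 6 of the 10, against 32.7%; the match of Psat1 to GGGCGG lies in its other window. TATAAA occurred in 1 of the 10, that of Phgdh, against 12.4% of windows. TGATGNAA, the letters searched for the element that ATF4 dimers bind, occurred in 0 of the 10 against 3.45%, and the E box CACGTG in 0 of the 10 against 6.02%. These are matches of letters in 1 window per start, and they show neither binding nor its absence.

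The 3 serine synthesis enzymes behaved differently from each other. Phgdh (chr3:98313170-98339990, minus strand, mm10), the dehydrogenase of the first step, was at 61.0, 62.2 and 64.0 FPKM in glands 1, 2 and 3 and at 53.3, 53.0 and 43.6 FPKM in tumours 1, 2 and 3. All 3 tumours were below all 3 glands, and tumour 3 was the lowest. The means were 62.4 ± 1.51 and 49.97 ± 5.55 FPKM (SD, n = 3 libraries each). The log2 fold change was -0.32 with a standard error of 0.11 (95% confidence interval -0.58 to -0.06) and a limma adjusted p of 0.0533, so the gene did not pass. It did pass without tumour 1, with a log2 fold change of -0.37 and a limma adjusted p of 0.0459, as it did without the filter on low values, with quantile normalization and with scaling to a common sum (limma adjusted p = 0.0499, 0.0170 and 0.0209). Over all alternatives that adjusted p ran from 0.0170 to 0.316.

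Psat1 (chr19:15904678-15947337, minus strand), the transaminase of the next step, was at 58.9, 45.9 and 54.3 FPKM in the glands against 187, 172 and 143 FPKM in the tumours. Every tumour was far above every gland, and tumour 1 was the highest. The means were 53.1 ± 6.59 and 167 ± 22.3 FPKM (SD, n = 3 each), a 3.15-fold difference, with a log2 fold change of 1.63, a standard error of 0.14 and a limma adjusted p of 2.34e-04. The level of Psat1 lay above that of 89.0% of tested genes in the glands and of 96.8% in the tumours.

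Psph (chr5:129765558-129787449, minus strand), the phosphatase that releases serine, was at 11.1, 12.9 and 15.8 FPKM in the glands against 13.3, 10.8 and 12.3 FPKM in the tumours. The groups overlapped, and the highest library was gland 3. The log2 fold change was -0.11 with a 95% confidence interval of -0.48 to 0.25 and a limma adjusted p of 0.580, and it was 0.011 without gland 3. The exons of Psph share 452 bases with Cct6a on the opposite strand, a gene at 89.3 to 100.2 FPKM in the glands and 137 to 153 FPKM in the tumours, and the sources used here do not say whether counting used the strand.

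The ratio of the Psat1 to the Phgdh level, both in FPKM and hence per length, was 0.966, 0.738 and 0.849 in glands 1, 2 and 3. In tumours 1, 2 and 3 it was 3.50, 3.24 and 3.28. Phgdh thus had the higher level of the pair in every gland and Psat1 in every tumour. In GENCODE, 22 other annotated genes, 20 of them pseudogenes, matched the Phgdh transcripts at 90.4% to 98.7% identity over at least 300 bases. The 2 listed in the table reached at most 0.0823 FPKM. Psat1 had 1 such copy, a pseudogene at 91.0% identity, and the other 8 genes had none, so reads of Phgdh and Psat1 may be shared with copies.

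**Figure D3:**
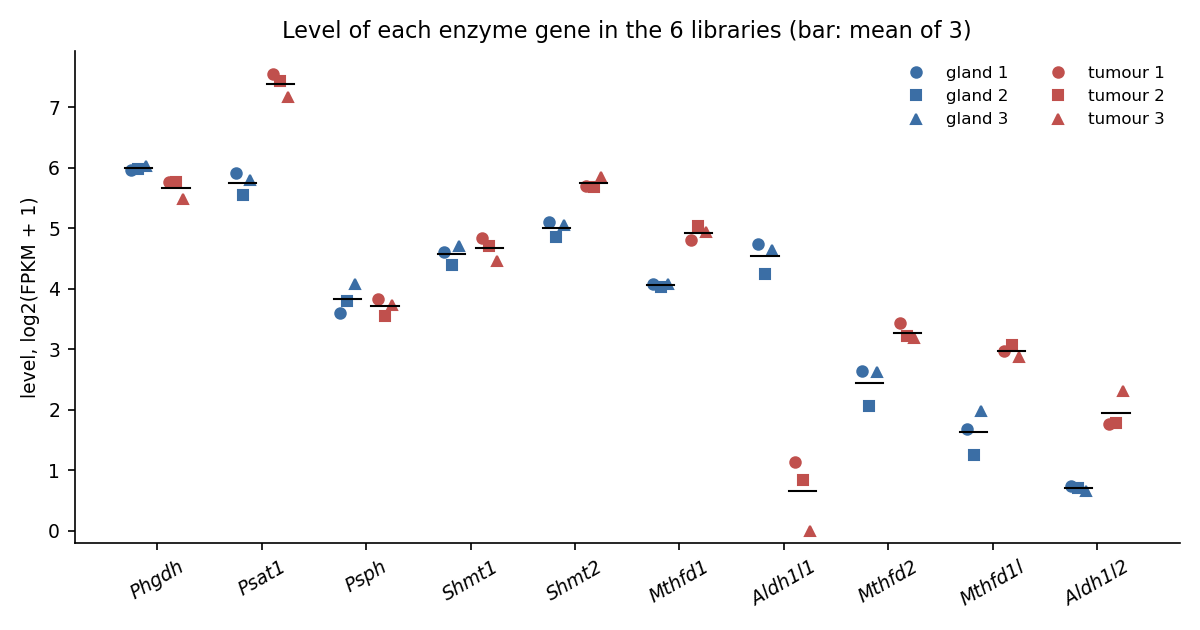
Level of each of the 10 enzyme genes as log2(FPKM + 1), with 1 point per library (blue for glands, red for tumours) and a bar at the mean of each group. Psat1 separates from Phgdh in the tumours, and Aldh1l1 drops from 17.9 to 25.5 FPKM in the glands to at most 1.20 FPKM in the tumours.

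Of the hydroxymethyltransferase pair, the mitochondrial gene was higher in the tumours and the cytosolic gene did not pass. Shmt2 (chr10:127517123-127522444, minus strand) was at 33.4, 28.0 and 32.2 FPKM in the glands against 51.0, 50.4 and 56.7 FPKM in the tumours. The groups did not overlap, with means of 31.2 ± 2.85 and 52.7 ± 3.47 FPKM (SD, n = 3 each). This was a 1.69-fold difference, with a log2 fold change of 0.74, a standard error of 0.11 and a limma adjusted p of 0.00193. Shmt1 (chr11:60788104-60811718, minus strand) was at 23.3, 19.9 and 25.2 FPKM in the glands against 27.4, 24.9 and 21.1 FPKM in the tumours. Here the groups overlapped, and the log2 fold change was 0.10 with a 95% confidence interval of -0.23 to 0.43 and a limma adjusted p of 0.597.

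The 2 cytosolic folate enzymes moved in opposite directions. Mthfd1 (chr12:76255298-76319803, plus strand), which interconverts folate-bound carbon units and joins formate to tetrahydrofolate, was at 15.9, 15.4 and 15.9 FPKM in the glands against 26.9, 31.9 and 29.6 FPKM in the tumours. Glands were tightly grouped and every tumour was above them, with means of 15.7 ± 0.316 and 29.5 ± 2.48 FPKM (SD, n = 3 each). The difference was 1.87-fold, with a log2 fold change of 0.86, a standard error of 0.10 and a limma adjusted p of 7.79e-04.

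Aldh1l1 (chr6:90486427-90600203, plus strand), which oxidises the formyl group of formyltetrahydrofolate to CO2 and so removes carbon units from the folate pool, was at 25.5, 17.9 and 23.8 FPKM in glands 1, 2 and 3. In tumours 1 and 2 it was at 1.20 and 0.794 FPKM, and in tumour 3 it was listed at 0. All tumours were thus below all glands by a wide margin. The log2 fold change was -3.87 with a standard error of 0.31 (95% confidence interval -4.60 to -3.15) and a limma adjusted p of 1.48e-04. The added 1 FPKM shrinks the change of so low a gene, and with 0.1 FPKM added the log2 fold change was -5.51. Its level lay above that of 72.7% of tested genes in the glands and of 5.63% in the tumours. Adipocyte, fibroblast and endothelial markers were lower in the same libraries. Tumour 3, the library with Aldh1l1 at 0, had the lowest adipocyte sum, 47.4 FPKM. It also had the lowest basal, lymphocyte, fibroblast and endothelial sums, 114, 3.81, 120 and 16.1 FPKM. Its luminal and nerve glia sums, 3444 and 254 FPKM, were the highest. The part of these cell types in the fall of Aldh1l1 was not tested.

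All 3 of the other mitochondrial folate enzymes were higher in the tumours. Mthfd2 (chr6:83305691-83325908, minus strand), a bifunctional dehydrogenase and cyclohydrolase, was at 5.20, 3.17 and 5.16 FPKM in the glands against 9.78, 8.27 and 8.08 FPKM in the tumours. The groups were apart, with gland 2 the lowest and tumour 1 the highest library. The means were 4.51 ± 1.16 and 8.71 ± 0.932 FPKM (SD, n = 3 each), a 1.93-fold difference, with a log2 fold change of 0.84, a standard error of 0.19 and a limma adjusted p of 0.0112.

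Mthfd1l (chr10:3973118-4167081, plus strand), which releases formate from formyltetrahydrofolate in mitochondria, was at 2.22, 1.37 and 2.92 FPKM in the glands against 6.87, 7.36 and 6.28 FPKM in the tumours. No gland reached the lowest tumour. The means were 2.17 ± 0.777 and 6.84 ± 0.539 FPKM (SD, n = 3 each), a 3.15-fold difference, with a log2 fold change of 1.33, a standard error of 0.21 and a limma adjusted p of 0.00224.

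Aldh1l2 (chr10:83487450-83534140, minus strand), the mitochondrial counterpart of Aldh1l1, was at 0.669, 0.628 and 0.580 FPKM in the glands against 2.38, 2.44 and 3.98 FPKM in the tumours. The glands were all below the filter value of 1 FPKM, so the gene passed the filter through the tumours, and tumour 3 was the highest library. The means were 0.626 ± 0.0447 and 2.93 ± 0.908 FPKM (SD, n = 3 each), a 4.69-fold difference, with a log2 fold change of 1.25, a standard error of 0.21 and a limma adjusted p of 0.00296. With 0.1 FPKM added the log2 fold change was 2.03. With glands 1 and 3 left out together the call was lost, at a log2 fold change of 1.25 and a limma adjusted p of 0.0789, the highest over its alternatives, of which the lowest was 9.18e-04. Its exons share 1056 bases with D10Wsu102e on the opposite strand, a gene at 8.57 to 12.5 FPKM in the glands and 14.5 to 17.2 FPKM in the tumours.

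Ordered by mean level, the glands ran from Phgdh through Psat1, Shmt2, Shmt1, Aldh1l1, Mthfd1, Psph, Mthfd2 and Mthfd1l to Aldh1l2. Neighbours in that order overlapped between libraries for Shmt1 with Aldh1l1 and for Mthfd1 with Psph. In the tumours the order was Psat1, Shmt2, Phgdh, Mthfd1, Shmt1, Psph, Mthfd2, Mthfd1l, Aldh1l2 and Aldh1l1, with overlaps for Shmt2 with Phgdh and for Mthfd1 with Shmt1. Within the glands, gland 2 was the lowest library for 7 of the 10 genes, and within the tumours, tumour 1 was the highest for 6. Tumour 1 also had the largest FPKM sum, 582996. The share of all tested genes with these ranks was not computed.

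The levels of the mitochondrial enzymes (Shmt2, Mthfd2, Mthfd1l and Aldh1l2) summed to 41.5, 33.2 and 40.8 FPKM in the glands and to 70.0, 68.5 and 75.0 FPKM in the tumours. Those of the cytosolic enzymes (Shmt1, Mthfd1 and Aldh1l1) summed to 64.7, 53.2 and 64.9 FPKM in the glands and to 55.5, 57.6 and 50.7 FPKM in the tumours. The mitochondrial share of both sums was therefore 38.4% to 39.1% in the glands and 54.3% to 59.7% in the tumours. Most of the mitochondrial sum came from Shmt2 in every library, and the cytosolic sums overlapped between the groups. That overlap hides opposite moves: Aldh1l1 fell (gland mean 22.4, tumour mean 0.666 FPKM) and Mthfd1 rose (gland mean 15.7, tumour mean 29.5 FPKM). The fall of Aldh1l1 by itself raises the mitochondrial share, and the rise of Mthfd1 lowers it. The share is thus no measure of a shift common to all these enzymes, and it was not computed without Aldh1l1.

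**Figure D4:**
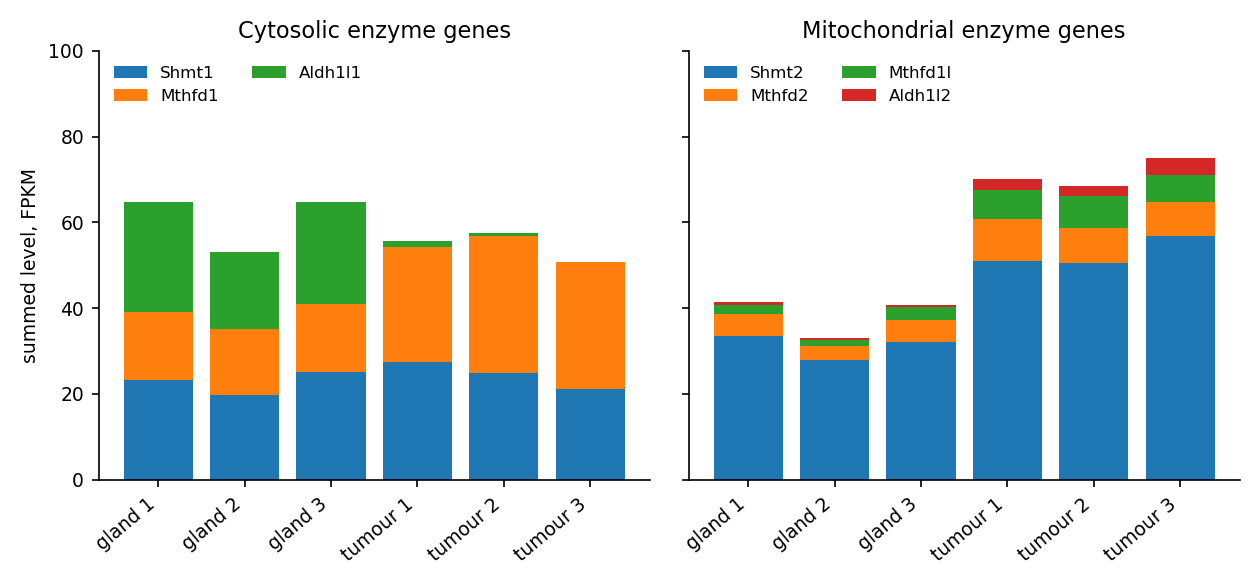
Summed FPKM of the cytosolic (left) and mitochondrial (right) enzyme genes in each library, as stacked bars with 1 segment per gene. The mitochondrial sum is 33.2 to 41.5 FPKM in the glands and 68.5 to 75.0 FPKM in the tumours, while the cytosolic sums of the groups overlap.

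Ratios between enzymes of the 2 compartments were compared within each library on log2(FPKM + 1), in 4 pairs, with an exact two-sided permutation test whose smallest possible p with 3 against 3 is 0.1. The log2 ratio of Shmt2 to Shmt1 was 0.44 ± 0.086 in the glands and 1.08 ± 0.27 in the tumours (SD, n = 3 each, exact p = 0.1). Every tumour was above every gland for this pair. The log2 ratio of Aldh1l2 to Aldh1l1 was -3.83 ± 0.25 in the glands and 1.29 ± 0.90 in the tumours (SD, n = 3 each, exact p = 0.1), so that the mitochondrial gene had the lower level in every gland and the higher in every tumour. The added 1 FPKM sets much of these values: without it the plain Aldh1l2 to Aldh1l1 ratio was 0.0244 to 0.0350 in the glands and 1.97 and 3.07 in tumours 1 and 2, and it is undefined in tumour 3, where Aldh1l1 is listed at 0. Aldh1l2 reached the filter of 1 FPKM only through the tumours and Aldh1l1 only through the glands. The crossing of this ratio thus rests on a low level of each gene in the other group. The log2 ratio of Mthfd1l to Mthfd1 was -2.43 ± 0.34 and -1.96 ± 0.12 (SD, n = 3 each, exact p = 0.1). The groups did not overlap but nearly met, with gland 3 at -2.11 and tumour 3 at -2.07. The log2 ratio of Mthfd2 to Mthfd1 was -1.62 ± 0.30 and -1.65 ± 0.24 (SD, n = 3 each, exact p = 1.0), with groups that overlapped. Adjusted over the 4 pairs, the p of the first 3 was 0.133, and none could pass 0.05 in this design.

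The 8 lists of related genes held 63 genes, of which 54 were tested: 20 were higher in the tumours, 11 were lower and 23 missed the threshold, with a median log2 fold change of 0.36. This is 37.0% higher and 20.4% lower, beside 21.9% and 23.1% of all tested genes. Of the 9 not tested, Ftcd, Bhmt, Bhmt2 and Dmgdh were listed at 0 in every library. Mat1a, Cbs and Sds, also untested, overlapped between the groups. For Cth and for Slc7a11, a gene of the ATF4 response list, all tumours were below all glands. Their means were 1.30 and 1.07 FPKM in the glands and 0.313 and 0.599 FPKM in the tumours, under the filter over the 6 libraries.

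Genes of folate uptake and retention moved both ways, with 2 of 7 higher, 3 lower and a median log2 fold change of 0.15. Folr1, a folate receptor of epithelial cells, was at 34.2, 23.9 and 27.5 FPKM in the glands against 178, 151 and 133 FPKM in the tumours, without overlap. Its log2 fold change was 2.40 with a standard error of 0.17 and a limma adjusted p of 1.00e-04. Folr2, the folate receptor known from macrophages, was at 28.1, 29.97 and 31.6 FPKM in the glands and 13.04, 10.4 and 4.35 FPKM in the tumours, with a log2 fold change of -1.70 and a limma adjusted p of 0.00649. The other gene called higher was Fpgs, which adds glutamates that retain folate in cells and is named after its values were seen, and the other lower ones were the carriers Slc19a1 and Slc25a32. Each of these 3 calls was lost when a single library was left out. Slc19a1 (log2 fold change -0.61) lost it without gland 1 or 3 or tumour 1 or 2, at log2 fold changes of -0.62 to -0.51 and limma adjusted p of 0.0558 to 0.0926. Slc25a32 (-0.44) and Fpgs (0.47) lost it without gland 1, 2 or 3 or tumour 2 or 3, at log2 fold changes of -0.45 to -0.35 and 0.37 to 0.52 and limma adjusted p of 0.0510 to 0.117 and 0.0746 to 0.121.

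Of 8 tested enzymes of purine, thymidylate and other folate reactions, 3 were higher and 5 missed the threshold, with a median log2 fold change of 0.20. Atic, the enzyme of the last steps of purine synthesis, was at 27.7 ± 2.40 FPKM in the glands and 52.0 ± 3.42 FPKM in the tumours (SD, n = 3 each), with a log2 fold change of 0.89 and a limma adjusted p of 8.12e-04. Tyms, thymidylate synthase, was at 5.42, 5.84 and 5.79 FPKM in the glands and 17.0, 13.1 and 8.28 FPKM in the tumours. Every tumour was above every gland, with a log2 fold change of 0.99 and a limma adjusted p of 0.0137. Gart, another purine enzyme, did not pass (limma adjusted p = 0.270), with 18.3 to 19.7 FPKM in the glands and 20.04 to 21.7 FPKM in the tumours. The 10 cell division genes were higher in the same libraries, and their part in these differences was not tested.

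The 4 proteins of the glycine cleavage system, which takes a carbon unit from glycine in mitochondria, split evenly, with a median log2 fold change of 0.08. Gldc, the decarboxylase, was at 2.30 ± 0.318 FPKM in the glands and 5.14 ± 0.817 FPKM in the tumours, and Amt, the aminomethyltransferase, at 18.7 ± 1.73 and 30.5 ± 4.58 FPKM (SD, n = 3 each). Both were called higher (limma adjusted p = 0.00451 and 0.00756). Gcsh, the carrier protein, was at 29.4 ± 0.464 and 20.4 ± 2.56 FPKM, and Dld, the dehydrogenase it shares with other complexes, at 84.4 ± 4.43 and 57.5 ± 4.99 FPKM (SD, n = 3 each). Both were called lower (limma adjusted p = 0.0109 and 0.00579).

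In the methionine cycle, 1 of 7 tested genes was higher, 1 lower and 5 did not pass, with a median log2 fold change of 0.15. Ahcy, which clears the product of methylation reactions, was at 20.2 ± 1.58 FPKM in the glands and 41.5 ± 6.06 FPKM in the tumours (SD, n = 3 each; log2 fold change 0.99, limma adjusted p = 0.00138). Mat2a, which makes S-adenosylmethionine, was at 76.3 to 79.7 and 85.7 to 88.7 FPKM and did not pass (limma adjusted p = 0.197). Mat2b, its regulatory partner, was the gene called lower, and it lost the call without gland 1 or 3 or tumour 2 (limma adjusted p 0.0581 to 0.0773). None of the 3 tested genes of choline oxidation passed, with a median log2 fold change of 0.12; limma gave an unadjusted p under 0.05 for 1 of them, Aldh7a1, whose adjusted p was 0.0503. Aldh7a1 was called higher under 6 of the 16 alternatives, among them without tumour 1 (limma adjusted p = 0.0311, the lowest) and without tumour 3 (0.0376), and its highest adjusted p was 0.285.

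Among genes that use serine, 2 of 6 tested were called higher, 2 were called lower and 2 missed the threshold, with a median log2 fold change of 0.09. Sptlc2, a subunit of the enzyme that joins serine to palmitoyl-CoA in sphingolipid synthesis, was at 14.6 ± 1.86 FPKM in the glands and 25.1 ± 1.32 FPKM in the tumours (SD, n = 3 each; log2 fold change 0.75, limma adjusted p = 0.00278). Sdsl, a serine dehydratase-like gene, was at 4.53, 3.66 and 2.59 FPKM in the glands and 1.06, 0.676 and 0.774 FPKM in the tumours (log2 fold change -1.31, limma adjusted p = 0.00271). The other calls, Sptlc1 higher and Srr lower, were lost without a single library: Sptlc1 without gland 1, 2 or 3 (limma adjusted p 0.0560 to 0.0823) and Srr without gland 2 or 3 or tumour 2 (0.0520 to 0.0746).

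Serine and glycine carriers gave 3 higher, 2 lower and 4 that did not pass of 9, with a median log2 fold change of 0.39. Slc1a5, a carrier of glutamine, serine and other neutral amino acids, was at 168, 150 and 185 FPKM in the glands against 11.1, 15.9 and 8.15 FPKM in the tumours. Every tumour was below every gland by a wide margin, with a log2 fold change of -3.77, a standard error of 0.22 and a limma adjusted p of 5.70e-05. Adipocyte, fibroblast and endothelial markers were lower in the same libraries, and their part in this difference was not tested. Sfxn3, of the family of mitochondrial serine carriers, was at 17.5 ± 2.40 FPKM in the glands and 36.4 ± 7.38 FPKM in the tumours (SD, n = 3 each; a 2.08-fold difference, limma adjusted p = 0.00403). Of the other calls, Slc38a2, higher, was lost without gland 3 or tumour 2 (limma adjusted p 0.0507 to 0.0526), and Slc6a9, lower, without gland 1 or 3 (0.0754 to 0.0765). Slc1a4, higher and named after its values were seen, was lost without gland 1 or 2 or tumour 2 or 3 (0.0697 to 0.113).

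Of 11 tested genes of the ATF4 response, 7 were called higher, 1 was called lower and 3 missed the threshold, with a median log2 fold change of 0.79. Atf4 itself was at 78.4, 77.2 and 78.5 FPKM in the glands against 130, 129 and 125 FPKM in the tumours, without overlap (log2 fold change 0.71, standard error 0.086, limma adjusted p = 8.26e-04). Asns, asparagine synthetase, was at 24.8, 20.1 and 25.2 FPKM in the glands and 50.1, 52.5 and 52.1 FPKM in the tumours (log2 fold change 1.12, limma adjusted p = 4.43e-04). Trib3, a pseudokinase induced by amino acid stress, was at 3.06 ± 0.691 and 13.5 ± 2.38 FPKM (SD, n = 3 each; log2 fold change 1.84, limma adjusted p = 3.77e-04). Slc7a5, a carrier of large neutral amino acids, was at 19.1, 14.0 and 14.7 FPKM in the glands and 102, 130 and 112 FPKM in the tumours (log2 fold change 2.78, limma adjusted p = 4.13e-05). Its partner chain Slc3a2 did not pass (limma adjusted p = 0.0549), although all 3 tumours, at 64.2 to 105 FPKM, were above the glands at 54.9 to 58.7 FPKM. Without tumour 2 Slc3a2 did pass (limma adjusted p = 0.0185, the lowest over its alternatives, with 0.299 the highest). The lower gene was Atf5, a related transcription factor named after its values were seen, at 83.3 ± 5.38 and 50.5 ± 4.12 FPKM (SD, n = 3 each; log2 fold change -0.71, limma adjusted p = 0.00199).

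With glands 1 and 3 left out together, the pair of libraries rich in lymphocyte markers, the calls of Folr2, Tyms, Gldc, Amt, Gcsh, Dld, Ahcy, Sfxn3 and Atf5 were lost, with limma adjusted p from 0.0518 for Ahcy to 0.221 for Tyms. Their log2 fold changes there were 0.952 to 1.21 times those with all libraries (-1.71 for Folr2 and 0.96 for Tyms), with 1 library left in the gland group. Those of Folr1, Atic, Sdsl, Sptlc2, Slc1a5, Slc7a5, Trib3, Asns and Atf4 passed there too. The genes of the ATF4 response that were called higher but are not named here did not pass there. The calls that single libraries decided, those of Slc19a1, Slc25a32, Fpgs, Mat2b, Sptlc1, Srr, Slc38a2, Slc6a9 and Slc1a4, were lost there as well. Where leaving out a single library ended these 9 calls, the log2 fold change was 0.777 to 1.10 times that with all libraries. Scaling to a common sum also ended those of Fpgs, Slc1a4 and Slc38a2, quantile normalization those of Slc6a9 and Slc25a32, testing without the filter those of Slc25a32, Fpgs and Slc1a4, a filter at a mean of 5 FPKM that of Slc25a32, and averaging tumours 1 and 2 that of Slc19a1. In the setting without glands 1 and 3, 5.91% of all tested genes were higher and 9.44% lower, and 5 of the 10 enzyme genes were higher and 1 was lower.

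**Figure D5:**
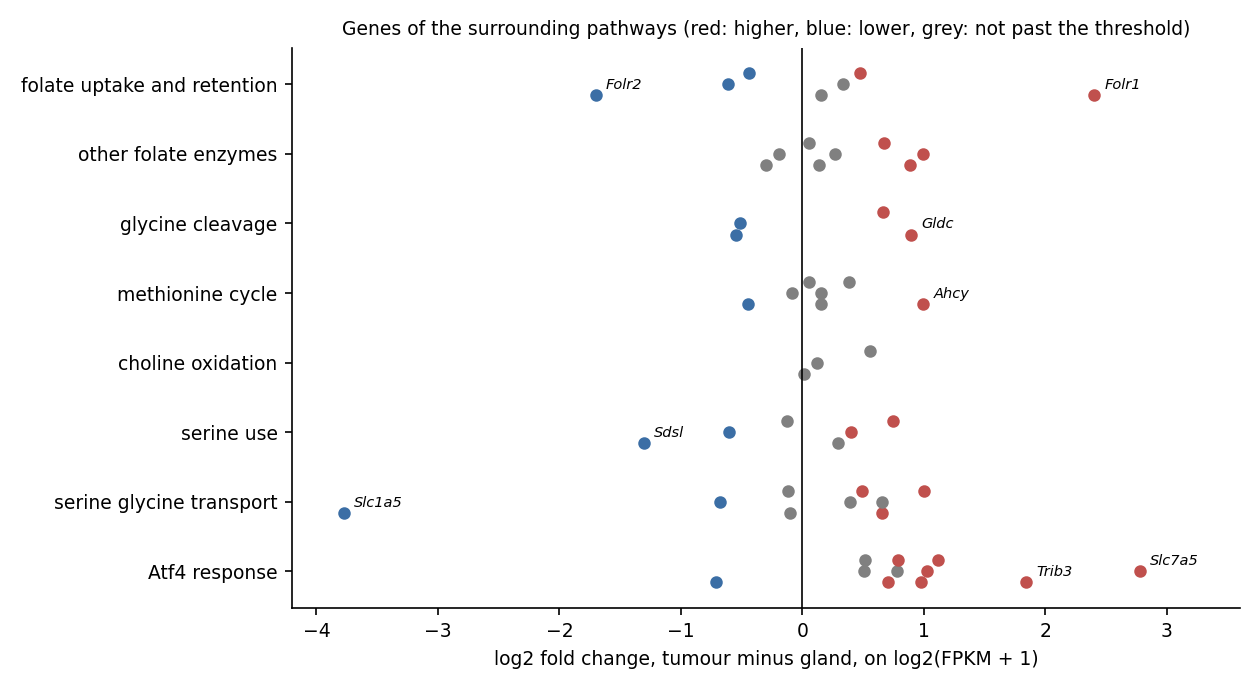
Log2 fold change, tumour minus gland on log2(FPKM + 1), of each tested gene of the related lists, with 1 point per gene, red where called higher, blue where called lower and grey where not past the threshold. Slc1a5 at -3.77 and Slc7a5 at 2.78 lie at the ends, and the median of each list lies between 0.08 and 0.79.

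The genes whose profile over the 6 libraries was most like that of Aldh1l1 were Serpina3c, Cd300lg, Adh1, Aqp7 and Cidea, at Euclidean distances of 0.185 to 0.509 between log2(FPKM + 1) profiles centred on their own mean, among 9467 genes. Those most like Psat1 were Ddx39, Cks2, Shcbp1, Cdc20 and Kpna2, at distances of 0.126 to 0.213. All 6 libraries are shared by every gene compared, so these distances are a description.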

How the data were processed

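RNA was sequenced in 3 mammary gland and 3 mammary tumour libraries. Per the submitters' processing notes, the authors used HISAT2, StringTie and mm10; no versions were given. The deposited values carry no unit in the header and were taken as FPKM from their form; steps between low values did not resolve relative depth, so depth is unknown. Differences were tested on log2(FPKM + 1) with limma 3.58.1 (R 4.3.3, mean-variance trend) over 13364 genes with a mean of at least 1, with Benjamini-Hochberg adjustment over all of them and a threshold of 0.05. The code was tested on simulated data of 13364 genes and recovered 64% of 2-fold and 89% of 4-fold changes, with 13 false calls of 166. Only 200 genes were changed there, all with a mean log2(FPKM + 1) above 2. In the data 2933 genes were called higher and 3090 lower, so these rates need not hold for them. Enzyme genes and lists were chosen with earlier results of these data known. The named genes were all 10 enzymes, per list up to 4 passing genes with the smallest p and 2 others with the highest mean, and the 5 genes most like 2 of the enzymes. Positions are from GENCODE M21, promoters from RefSeq, and copies were sought with blastn 2.17.0. In the related lists, 1 gene is counted but its values are not reported here. The 16 alternatives covered pseudocount, filter, scaling, trend, replicate block and left-out or averaged libraries.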

Additional observations from a re-analysis of the deposited data

How the results depend on the processing

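The number of enzyme genes higher in the tumours, 6, was between 4 and 6 under all 16 alternatives; the 4 came from the filter at a mean of 5 FPKM, which leaves 2 of the 6 untested. The number lower, 1, became 2 through Phgdh without a filter, with quantile normalization and with scaling to a common sum, and was 1 to 2 with single libraries left out. Quantile normalization moved the median of all tested genes from 0.008 to 0.11. The 20 related genes called higher became 7 and the 11 called lower became 2 with glands 1 and 3 left out together, an alternative chosen after seeing the data, as was averaging tumours 1 and 2; gland 2 is then assumed to vary like the tumours. With single libraries left out these counts were 17 to 22 and 6 to 10. In those settings 15.3% to 23.4% of all tested genes were higher and 16.9% to 24.3% lower. Among changes that did not pass, signs turned as follows on the log2 scale; the cause was not tested. With single libraries left out, Psph ran from -0.22 to 0.011, Slc46a1 from -0.0194 to 0.27, Slc25a38 from -0.22 to 0.031 and the Mthfd2 to Mthfd1 ratio from -0.199 to 0.0640. Quantile normalization gave 0.15 for Mtrr and 0.00256 for Slc25a38, leaving out glands 1 and 3 gave 0.041 for Sfxn1, and 0.1 FPKM added gave 0.065 for the Mthfd2 to Mthfd1 ratio. The labels share replicate numbers. Deviations from the group mean correlated at r of -0.054, -0.118 and -0.124 between same-numbered libraries and at -0.010 to 0.097 between differently numbered ones. Deviations within 3 libraries sum to 0, so these values cannot decide whether glands and tumours were paired. With the replicate block, 6 enzyme genes were higher and 1 was lower, and 18 related genes were higher and 8 lower, beside 16.1% higher and 19.3% lower of all tested genes; among the genes named it ended the calls of Mat2b, Sptlc1, Slc38a2, Slc6a9, Slc25a32 and Fpgs and gave one to Aldh7a1. Under all alternatives that tested them, Psat1, Shmt2, Mthfd1, Mthfd2, Mthfd1l and Aldh1l1 passed in the same direction. The number of libraries and the unknown depth limit the precision, most of all for Aldh1l2 and Aldh1l1 at their low levels.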
